A study of Mus musculus with 12 samples.

Results

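The transcripts of 10 late neutrophil genes, out of 37620 genes in the count table, were followed in cells purified as bone endothelial cells (BECs) from young and aged mice. They were Ltf, Camp, Ngp, Lcn2 and Chil3, which encode proteins stored in neutrophil granules, S100a8 and S100a9, which encode the subunits of calprotectin, and Retnlg, Csf3r and Itgb2l, which mark maturing neutrophils. The genes were picked by name, partly because neutrophil genes had been seen to differ between the sexes in opposite directions at the 2 ages, so sex differences are described here without a test. The age difference averaged over the sexes, which in this balanced design is orthogonal to both sex differences, was tested.

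RNA-seq was carried out on cells of C57/Bl6 mice, which are an inbred strain, of either sex, aged 2 weeks (young) or 65 weeks (aged). The label gives the tibia as their source, and the cells were purified by endomucin, a surface protein of bone capillaries. Each of the 4 groups had 3 libraries, and the labels name no transgene, treatment or further sorting marker. For the sequenced samples the study's methods state that the best RNA of each set was taken forward, and nothing in the labels says that the libraries of a group came from separate mice, so the spread between them may be technical.

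Neutrophils are short-lived white cells made in the bone marrow. Their precursors first fill primary granules with enzymes such as myeloperoxidase and elastase, then switch, under C/EBP transcription factors, to the proteins of specific and gelatinase granules, and finally acquire the receptors of the mature cell. Granulocyte colony-stimulating factor, acting through its receptor Csf3r, drives their production. None of the 10 genes is a marker of endothelial cells, and in bulk RNA more cells of a type and more RNA per cell cannot be told apart.

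The libraries held between 26044743 and 44569600 counts, with the 65-week libraries below the 2-week ones, and the lowest count of any of the 10 genes in any library was 885. All 12 libraries matched their label by Xist and Ddx3y. Male 65-week replicate 3 nevertheless had Xist at 3.35% of the mean of aged females, and female 2-week replicate 3 had Ddx3y at 0.566% of the mean of young males. The endothelial label was checked with 20 marker genes, whose summed level was 4333 to 7837 CPM (counts scaled to the library total) at 2 weeks and 391 to 536 CPM at 65 weeks. Emcn, which encodes endomucin itself, was at 147 ± 32.9 CPM in young females, 197 ± 38.0 CPM in young males, 5.0 ± 2.10 CPM in aged females and 5.64 ± 0.971 CPM in aged males (SD, n = 3 each). The cells labelled as endothelial thus carried far fewer endothelial transcripts at 65 weeks.

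The stretch upstream of each gene was read for letters that resemble binding motifs of granulocyte transcription factors. The 250 bases before the RefSeq start (GRCm38.p6) were found for 10 of the 10 genes and for 32851 windows in all. The letters TTGCNNAA, one form of a C/EBP motif, occurred on either strand in 5 of the 10 genes and in 9.56% of all windows. These 5 are shown from base -250 to -62 before the start, 5′ to 3′ on the strand of the gene, with the match in capitals.
Ltf, chr9:111019042-111019230, plus strand: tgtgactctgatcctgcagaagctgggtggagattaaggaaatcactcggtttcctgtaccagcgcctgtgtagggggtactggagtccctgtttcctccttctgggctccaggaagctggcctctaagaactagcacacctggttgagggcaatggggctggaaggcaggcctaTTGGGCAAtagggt
Ngp, chr9:110419558-110419746, plus strand: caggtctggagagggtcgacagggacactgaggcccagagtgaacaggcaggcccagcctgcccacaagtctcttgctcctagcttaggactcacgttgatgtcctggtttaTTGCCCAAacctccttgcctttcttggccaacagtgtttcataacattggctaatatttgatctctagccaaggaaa
Lcn2, chr2:32387801-32387989, minus strand: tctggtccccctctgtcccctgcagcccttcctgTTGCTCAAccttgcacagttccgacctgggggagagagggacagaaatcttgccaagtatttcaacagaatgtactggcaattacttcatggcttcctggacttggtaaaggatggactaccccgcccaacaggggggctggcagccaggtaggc
S100a9, chr3:90695783-90695971, minus strand: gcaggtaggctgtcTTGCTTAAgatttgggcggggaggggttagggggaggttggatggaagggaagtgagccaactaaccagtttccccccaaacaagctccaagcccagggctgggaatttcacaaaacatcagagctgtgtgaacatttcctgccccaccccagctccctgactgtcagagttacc
Retnlg, chr16:48872358-48872546, plus strand: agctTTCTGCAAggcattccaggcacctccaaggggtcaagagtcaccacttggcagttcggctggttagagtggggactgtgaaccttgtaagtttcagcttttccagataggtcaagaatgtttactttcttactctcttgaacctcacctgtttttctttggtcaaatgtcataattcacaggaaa

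The match lay close to the start in Ltf (bases -75 to -68) and at the far end of the window in Retnlg (-246 to -239), and Ngp had a second one outside the stretch shown (-11 to -4). The looser letters TTNNGNAA, which overlap every one of these matches, were found in 8 of the 10 genes and in 36.8% of all windows. GAGGAA, a motif core of ETS factors such as PU.1 (Spi1), occurred in 5 of the 10 genes, Ltf, Lcn2, S100a8, Csf3r and Itgb2l, against 23.3% of all windows. The full palindrome TTGCGCAA was in none of the 10 and in 0.164% of all windows. The RUNX letters TGTGGT were found in S100a9 alone, against 14.0% of all windows, and a longer RUNX form in none of the 10, against 1.25%. AATCAC, the core read by the repressor GFI1, was in the windows of Ltf and S100a8, against 9.14% of all windows. A TATAAA box was seen in S100a8, against 12.4% of all windows, and an NF-kB motif in none of the 10, against 1.41%. All motifs were searched on both strands. With motifs picked by hand and 10 windows, these matches are a description of the letters only.

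All 10 genes rose between 2 and 65 weeks (edgeR quasi-likelihood test on the 12 libraries, adjusted over 15747 genes), where 34.8% of all genes tested were called higher and 69.8% in either direction. By fold change the smallest rise was 3.32-fold, while 13.3% of all genes were called higher and changed at least 2-fold. Every 65-week library lay above every 2-week library for 10 of the 10 genes, which held for 16.5% of all genes. Fold changes were scaled by TMM, and scaling by library totals would move each age difference by -0.11 on the log2 scale. The median age difference of the 10 genes was 2.05 on the log2 scale, that of all genes 0.00 and their 95th percentile 2.09. Together the 10 genes held 0.412 to 0.641% of the counts of each 2-week library and 1.31 to 2.78% at 65 weeks. At the same time all 20 endothelial markers fell (median log2 difference -4.25), where 5505 of the 15747 genes were called lower. The part of this fall in the rise of the neutrophil genes was not tested.

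**Figure D1:**
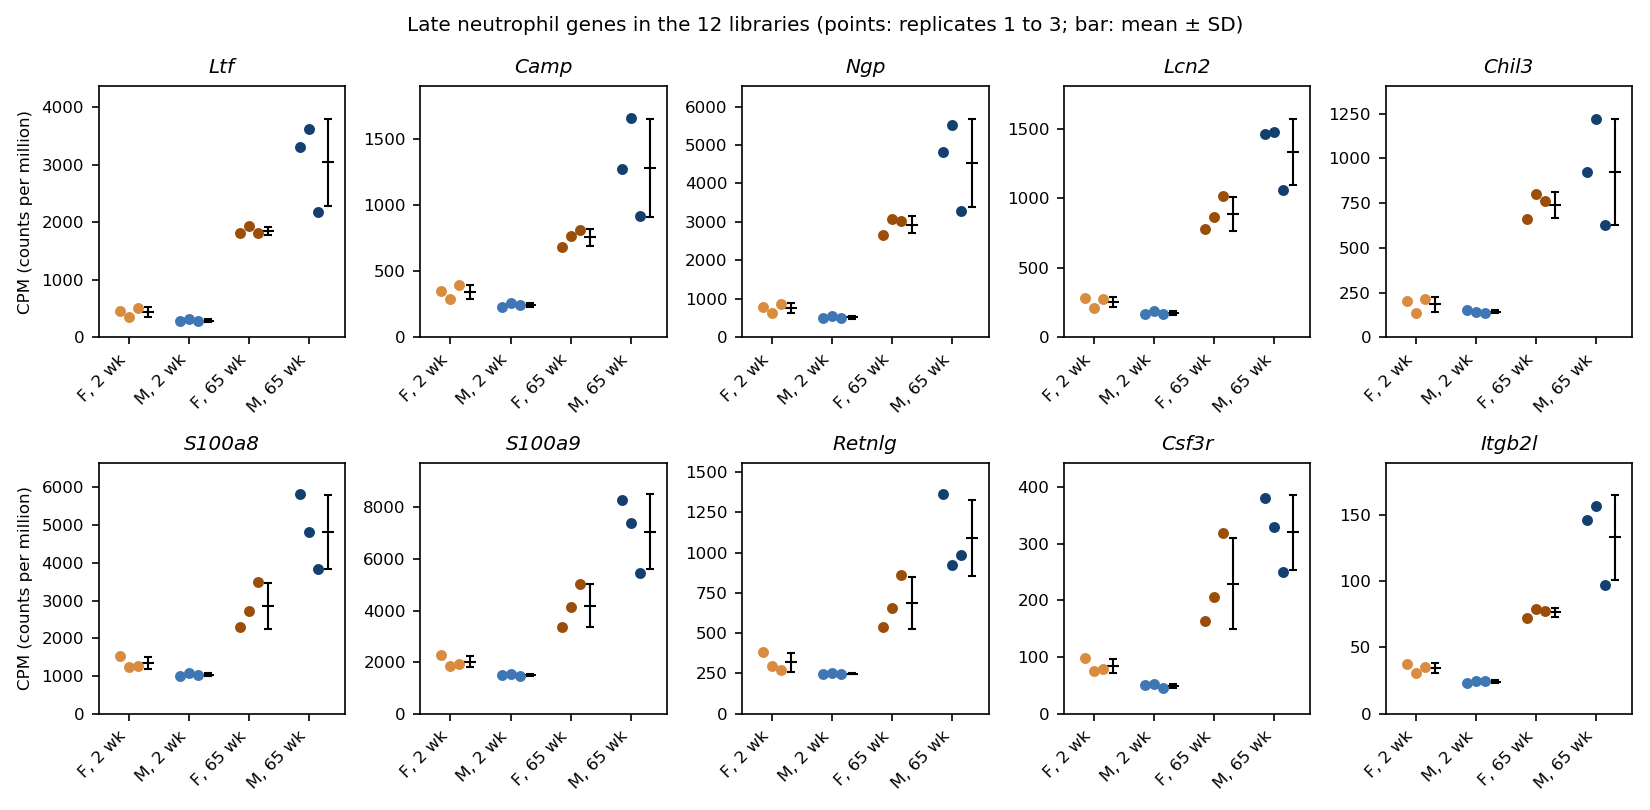
CPM of each of the 10 genes (vertical axes, linear and starting at 0, with a different scale in each panel) in the 4 groups of females (F) and males (M) at 2 and 65 weeks. Points are replicates 1 to 3 from left to right and the bar beside them is mean ± SD (n = 3); all 6 libraries of 65 weeks lie above all 6 of 2 weeks in every panel.

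Genes of the specific granules were taken first. Ltf (ENSMUSG00000032496, GRCm39 chr9:110848339-110871835, plus strand) encodes lactoferrin, an iron-binding protein that withholds iron from bacteria. In replicates 1 to 3 it was at 464, 352 and 508 CPM in young females, 280.5, 316 and 275 CPM in young males, 1812, 1928 and 1805 CPM in aged females and 3313, 3623 and 2187 CPM in aged males. No groups overlapped: young males were lowest, followed by young females, aged females and aged males. The rise with age was 7.19-fold (log2 2.85, SE 0.142, edgeR adjusted p = 4.65e-09), the largest of the 10 genes, although the aged males spread 1.66-fold between their highest and lowest library and the aged females only 1.07-fold.

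Ngp (ENSMUSG00000032484, GRCm39 chr9:110248815-110252086, plus strand) encodes neutrophilic granule protein, a relative of the cystatins. Its levels were 796, 628 and 866 CPM in young females, 490, 549 and 508 CPM in young males, 2671, 3084 and 3032 CPM in aged females and 4808, 5520 and 3282 CPM in aged males. The 4 groups again did not overlap and followed the order seen for Ltf. Ngp rose 6.31-fold (log2 2.66, SE 0.138, edgeR adjusted p = 6.63e-09).

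Camp (ENSMUSG00000038357, GRCm39 chr9:109676442-109678685, minus strand) encodes the only mouse cathelicidin, the precursor of an antimicrobial peptide. It lies on the same chromosome as Ngp and Ltf, and the 3 genes fall within 1.20 Mb. Camp was measured at 351, 290.0 and 393 CPM in young females, 230, 256 and 245 CPM in young males, 685, 767 and 816 CPM in aged females and 1277, 1659 and 916 CPM in aged males. The order of the groups was the same and none overlapped, but the rise was smaller than that of its neighbours, at 3.69-fold (log2 1.88, SE 0.138, edgeR adjusted p = 1.27e-07).

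Lcn2 (ENSMUSG00000026822, GRCm39 chr2:32274645-32278264, minus strand) encodes lipocalin 2, which binds the iron carriers of bacteria. The young females had 281, 212 and 273 CPM and the young males 166, 189 and 164 CPM, against 777, 867 and 1016 CPM in the aged females and 1463, 1479 and 1057 CPM in the aged males. All 4 groups stood apart in the same order as before, with aged male replicate 3 only just above the highest aged female. The age difference was 5.61-fold (log2 2.49, SE 0.122, edgeR adjusted p = 4.12e-09).

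Chil3 (ENSMUSG00000040809, GRCm39 chr3:106054870-106074880, minus strand) encodes the chitinase-like protein Ym1, which macrophages also make. It was at 200.2, 136 and 214 CPM in young females, 150.1, 140.5 and 134 CPM in young males, 658, 798.5 and 762 CPM in aged females and 925, 1222 and 629 CPM in aged males. Here the sexes overlapped at both ages, since female replicate 2 fell within the male range at 2 weeks and male replicate 3 lay below all females at 65 weeks. The rise with age was 5.57-fold (log2 2.48, SE 0.167, edgeR adjusted p = 5.74e-08). Its close relative Chil4, with which it could share reads, had between 0 and 3 counts per library.

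The calprotectin subunits had the highest levels of the 10 per kilobase of exon. S100a8 (ENSMUSG00000056054, GRCm39 chr3:90567118-90578128, plus strand) and S100a9 (ENSMUSG00000056071, GRCm39 chr3:90599931-90603071, minus strand) lie 21.8 kb apart. Their calcium-binding products form a complex in the cytosol that also captures zinc and manganese. S100a8 was at 1528, 1248 and 1269 CPM in young females, 1000, 1076 and 1019 CPM in young males, 2303, 2733 and 3503 CPM in aged females and 5814, 4817 and 3846 CPM in aged males. S100a9 was at 2267, 1866 and 1922 CPM in young females, 1486, 1537 and 1460 CPM in young males, 3382, 4140 and 5043 CPM in aged females and 8296, 7405 and 5469 CPM in aged males. For both genes the 4 groups did not overlap, young males were the most uniform group and aged female replicate 3 came close to aged male replicate 3. The rises were 3.41-fold for S100a8 (log2 1.77, SE 0.131, edgeR adjusted p = 1.37e-07) and 3.39-fold for S100a9 (log2 1.76, SE 0.130, edgeR adjusted p = 1.28e-07).

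Retnlg (ENSMUSG00000022651, GRCm39 chr16:48692547-48694862, plus strand) encodes resistin-like gamma, a small secreted protein of blood and marrow neutrophils. It was at 386, 297 and 271 CPM in young females, 248, 251 and 249 CPM in young males, 541, 657.5 and 858.5 CPM in aged females and 1361, 924 and 986 CPM in aged males. The groups were ordered as for the granule genes and did not overlap, with the young males within 1.01-fold of each other. Its rise was the smallest, at 3.32-fold (log2 1.73, SE 0.141, edgeR adjusted p = 3.17e-07). Retnla, a related gene, had at most 25 counts per library.

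Csf3r (ENSMUSG00000028859, GRCm39 chr4:125918262-125938236, plus strand) encodes the receptor of granulocyte colony-stimulating factor. The CPM values were 98.8, 74.7 and 78.8 in young females, 50.1, 53.0 and 45.9 in young males, 164, 206.5 and 319 in aged females and 380.5, 330 and 250 in aged males. At 65 weeks the sexes overlapped, since female replicate 3 lay above male replicate 3, and female values spread 1.94-fold. Csf3r rose 4.55-fold (log2 2.19, SE 0.167, edgeR adjusted p = 1.82e-07).

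Itgb2l (ENSMUSG00000000157, GRCm39 chr16:96223488-96244841, minus strand) encodes an integrin beta chain that resembles Itgb2, the common chain of the leukocyte integrins. It was the lowest of the 10, at 37.5, 30.6 and 35.4 CPM in young females, 23.1, 25.0 and 24.4 CPM in young males, 72.2, 79.1 and 77.8 CPM in aged females and 146, 157 and 96.7 CPM in aged males. The groups did not overlap and kept the common order. The rise was 3.79-fold (log2 1.92, SE 0.119, edgeR adjusted p = 2.94e-08). The gene overlaps Igsf5 on the other strand, which had at most 5 counts in any library.

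Per kilobase of exon, which makes genes only roughly comparable, the order of the 10 was the same at both ages: S100a9, S100a8, Ngp, Camp, Retnlg, Ltf, Chil3, Lcn2, Csf3r and Itgb2l. The length took in every annotated exon of a gene, 2623 of the 3620 bases spanned by Lcn2. It can exceed the length of the transcript present, and the order and ranks between genes depend on it. S100a9 averaged 1380 ± 250 CPM per kb at 2 weeks and 4410 ± 1480 at 65 weeks (SD, n = 6 each), and Itgb2l 6.75 ± 1.41 and 24.1 ± 8.54. In 6 of 6 libraries of each age S100a9 exceeded S100a8, Ngp exceeded Camp and Camp exceeded Retnlg. The neighbours Chil3 and Lcn2 were not separated, since Chil3 was higher in 5 of 6 libraries at 2 weeks and in 4 of 6 at 65 weeks, and Retnlg exceeded Ltf in 6 of 6 libraries at 2 weeks but in 4 of 6 at 65 weeks. Among 19951 protein-coding genes ranked by this level, S100a9 moved from rank 8 to rank 3, Ngp from 43 to 7 and Ltf from 282 to 33. The surface proteins ranked lower, Csf3r moving from 2758 to 554 and Itgb2l from 4839 to 1420.

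**Figure D2:**
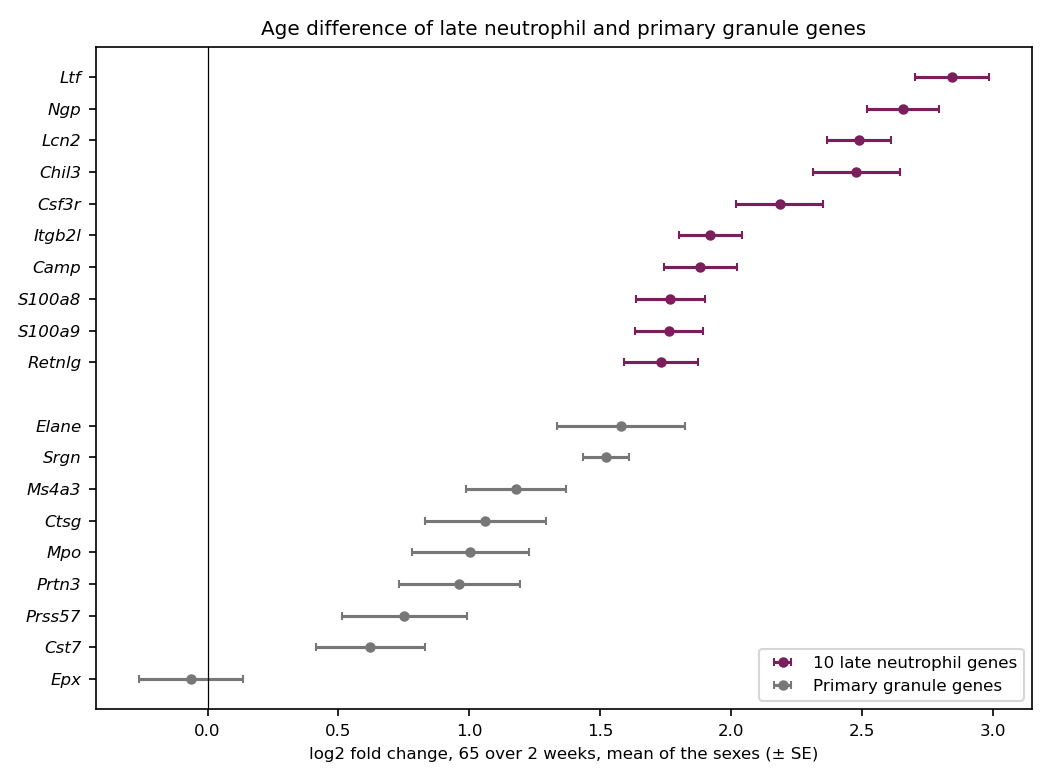
Log2 fold change of 65 over 2 weeks, averaged over the sexes (horizontal axis), with its SE, for the 10 late neutrophil genes and for 9 genes of the primary granules. The late genes run from 1.73 (Retnlg) to 2.85 (Ltf) and the primary granule genes from -0.06 (Epx) to 1.58 (Elane).

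Proportions between the 10 genes were compared within each library, where scaling plays no part. S100a8 counts per S100a9 count were between 0.650 and 0.703 in all 12 libraries, and Retnlg counts per S100a8 count between 0.192 and 0.256, so these 3 transcripts kept almost the same proportion at both ages and in both sexes. By contrast, Camp counts per Ltf count were 0.758 to 0.890 in the 2-week libraries and 0.378 to 0.458 in the 65-week libraries. Ltf counts per S100a8 count were 0.270 to 0.400 and 0.515 to 0.787, respectively. In both ratios the ages did not overlap, whereas the sexes of each age had similar means (Camp per Ltf 0.785 ± 0.0345 in females and 0.839 ± 0.0441 in males at 2 weeks, 0.409 ± 0.0385 and 0.421 ± 0.0362 at 65 weeks, SD, n = 3 each). Ngp per Ltf moved less, from 1.70 to 1.85 at 2 weeks to between 1.45 and 1.68 at 65 weeks. Not all proportions were alike in the sexes: Csf3r counts per S100a8 count were higher in females without overlap at each age. At 2 weeks they were 0.0599 to 0.0646 in females and 0.0451 to 0.05 in males. At 65 weeks they were 0.0713 to 0.0909 and 0.0649 to 0.0686, respectively. These ratios were chosen after their values were seen and were not tested.

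**Figure D3:**
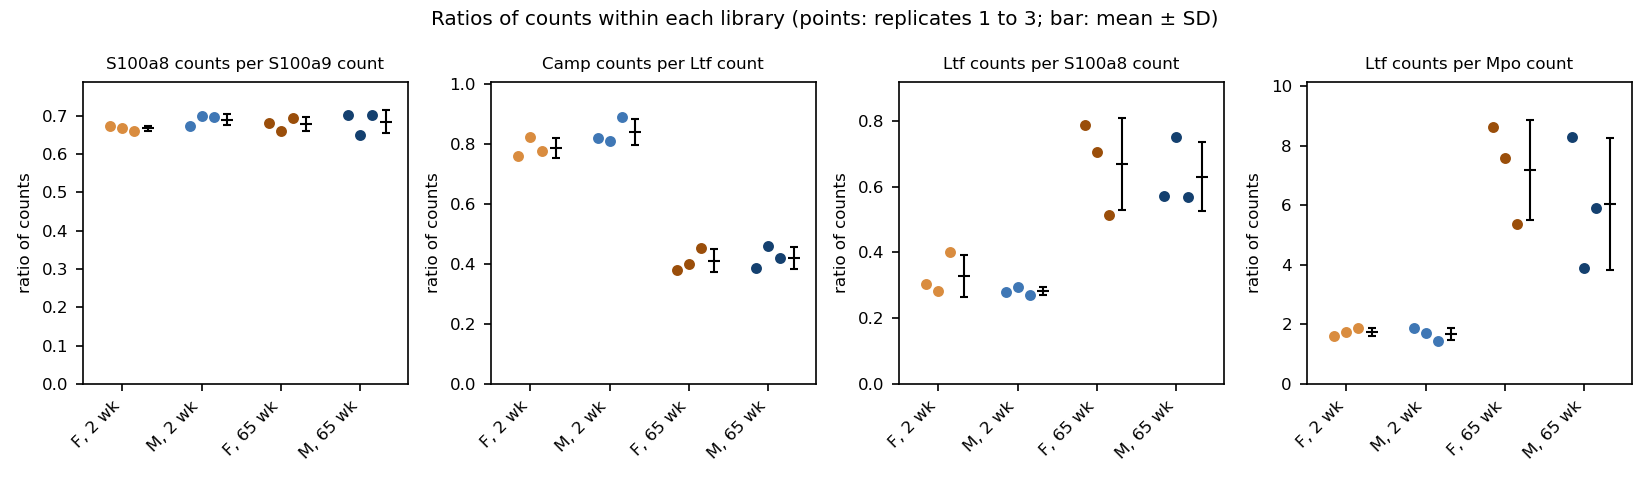
Ratios of the counts of a pair of genes in each library (vertical axes, linear and starting at 0) in the 4 groups, with points for replicates 1 to 3 and bars for mean ± SD (n = 3). S100a8 per S100a9 stays between 0.650 and 0.703, while Camp per Ltf is lower and Ltf per S100a8 and Ltf per Mpo are higher in every 65-week library than in any 2-week library.

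Of 9 genes of the earlier, primary granules 8 rose and none fell (edgeR adjusted p under 0.05), where 34.8% of all genes were called higher. Their median log2 difference was 1.00 against 2.05 for the 10 late genes, and the one not called was Epx, an eosinophil enzyme (log2 -0.06, SE 0.200). Elane, which encodes neutrophil elastase, rose by 1.58 (SE 0.245, edgeR adjusted p = 9.83e-05). Srgn, the proteoglycan that packs granule proteins, rose by 1.52 (SE 0.087, edgeR adjusted p = 1.41e-08). These calls average the sexes, and not every gene was clearly higher in aged females. From young to aged females Srgn went from 142 ± 5.23 to 402 ± 75.5 CPM (SD, n = 3 each). Prtn3 went from 66.7 ± 9.68 to 74.9 ± 22.0 CPM and Prss57 from 7.6 ± 0.84 to 6.8 ± 2.1 CPM. Mpo, myeloperoxidase, was at 253 ± 45.3 CPM in young females, 175 ± 21.5 CPM in young males, 267 ± 64.3 CPM in aged females and 568 ± 318 CPM in aged males (SD, n = 3 each). Ltf counts per Mpo count were thus 1.45 to 1.87 at 2 weeks and 3.88 to 8.64 at 65 weeks. The lowest of the latter was aged male replicate 2, the library highest in Ltf, Ngp, Camp, Lcn2, Chil3 and Itgb2l, whereas S100a8, S100a9, Retnlg and Csf3r were highest in aged male replicate 1.

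Other genes of the specific and gelatinase granules mostly rose with age like the 10: of 18 tested 16 rose and 1 fell, with a median log2 difference of 1.62. The calls of this and the next list are read against the 34.8% of all genes called higher. Cd177, a surface protein of neutrophils, rose by 2.74 (SE 0.120, edgeR adjusted p = 1.79e-09) and Pglyrp1, which binds bacterial peptidoglycan, by 2.14 (SE 0.116, edgeR adjusted p = 9.52e-09). The gelatinase Mmp9, which osteoclasts also make, fell by 0.70 (SE 0.127, edgeR adjusted p = 0.000356). Of 28 other genes of neutrophil maturation 26 rose and 1 fell, with a median of 1.71. Il1b, interleukin 1 beta, rose by 3.53 (SE 0.257, edgeR adjusted p = 1.16e-07). Clec4e, a receptor for microbial and dead-cell products, rose by 2.80 (SE 0.132, edgeR adjusted p = 3.01e-09). Lrg1, a glycoprotein that endothelial cells also make, fell by 0.98 (SE 0.185, edgeR adjusted p = 0.000442). Genes of these lists that rose are not limited to neutrophils either. The part of other cells in the rises and falls was not tested.

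Transcription factors of the granulocyte line were mixed, with 7 of 11 higher, 2 lower and a median log2 difference of 1.00, where 34.8% of all genes were called higher. Cebpe, required for specific granules, rose by 1.68 (SE 0.147, edgeR adjusted p = 6.15e-07), Cebpb by 2.32 (SE 0.155, edgeR adjusted p = 5.26e-08), and Cebpd, Gfi1 and Spi1 by 1.00, 1.29 and 1.31 (edgeR adjusted p = 4.56e-05, 0.000122 and 1.03e-08). Cebpa, which acts at an earlier stage, had a log2 difference of 0.19 (SE 0.090, edgeR adjusted p = 0.0724). The 2 that fell were Ets1 and Egr1, by 1.19 and 1.17 (edgeR adjusted p = 1.86e-05 and 0.000157). Neither is particular to granulocytes, and the part of other cells in their fall was not tested. The levels of Cebpe in CPM, 20.9 ± 2.42 in young females, 13.7 ± 1.85 in young males, 37.5 ± 5.23 in aged females and 67.1 ± 19.6 in aged males (SD, n = 3 each), had the same group order as the 10 genes. Among the other factors named here, the means of Cebpd, Gfi1 and Spi1 also had this order, and those of Cebpa, Cebpb, Ets1 and Egr1 did not. The means of Spi1 were almost equal in aged females and males, at 236 and 239 CPM. Cebpb was at 29.2 ± 1.11 and 22.5 ± 4.73 CPM in young females and males and 144 ± 47.2 and 97.0 ± 10.6 CPM in aged females and males (SD, n = 3 each), so aged females were highest. The group order contains the sex differences used to pick the 10 genes and was not tested.

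Receptors, ligands and partners of the encoded proteins, or of Itgb2 in the case of Itgb2l, showed no common direction. The list held 14 genes, of which 12 could be tested, 6 rose and 2 fell, with a median log2 difference of 0.23. Of all genes 34.8% were called higher. Csf3, the ligand of Csf3r, had 0 counts in all 12 libraries. Of the partners of the beta 2 integrin chain, Itgax rose by 2.43 (SE 0.104, edgeR adjusted p = 1.49e-09) and Itgal by 2.18 (SE 0.115, edgeR adjusted p = 7.26e-09). Socs3, an inhibitor of signalling through Csf3r, fell by 1.08 (SE 0.170, edgeR adjusted p = 0.000114). Itgb2l counts per count of its relative Itgb2 averaged 0.131 ± 0.00865 in young females, 0.0983 ± 0.0109 in young males, 0.0913 ± 0.0128 in aged females and 0.175 ± 0.0444 in aged males (SD, n = 3 each).

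Markers of other marrow cells were measured in the same libraries. Their calls are read against the 34.8% of all genes called higher and the 5505 of 15747 called lower. Of 12 monocyte and macrophage markers 9 rose and 1 fell, with summed levels of 3681 to 6846 CPM at 2 weeks and 4239 to 6472 CPM at 65 weeks. Of 10 B cell markers 8 rose, from 553 to 806 CPM in sum to between 7417 and 19110 CPM. Most of that sum was Ighm, the heavy chain of immunoglobulin M, and the other 9 genes summed to 287 to 404 CPM at 2 weeks and 476 to 1723 CPM at 65 weeks. Of 10 T and NK cell markers 9 rose and 1 fell, of 11 erythroid markers 7 rose, and all 8 megakaryocyte markers fell. The erythroid markers had the largest sum of these lists, 32080 to 59420 CPM at 2 weeks and 32310 to 49500 CPM at 65 weeks. At both ages this was above the sum of the endothelial markers, which was 4333 to 7837 CPM at 2 weeks. The 3 of 10 genes of dividing cells and 3 of 10 markers of eosinophils, basophils and mast cells called higher did not exceed the share over all genes. No gene of these lists was at 0 in all 65-week libraries. Their part in the levels of the 10 genes was not tested.

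At 2 weeks all 10 genes were lower in males than in females, by log2 differences from -0.78 (Csf3r) to -0.37 (Retnlg) with a median of -0.53. At 65 weeks all 10 were higher in males, from 0.32 (Chil3) to 0.80 (Itgb2l) with a median of 0.69. The medians over all genes were 0.01 and 0.00, respectively. The young male libraries lay below all young female libraries for 9 of the 10 genes, against 11.8% of all genes, and the aged male libraries above all aged female libraries for 8 of the 10, against 9.32%. Both held for 8 of the 10, against 1.02% of all genes. The genes were picked for this pattern, so these counts describe it and support nothing.

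**Figure D4:**
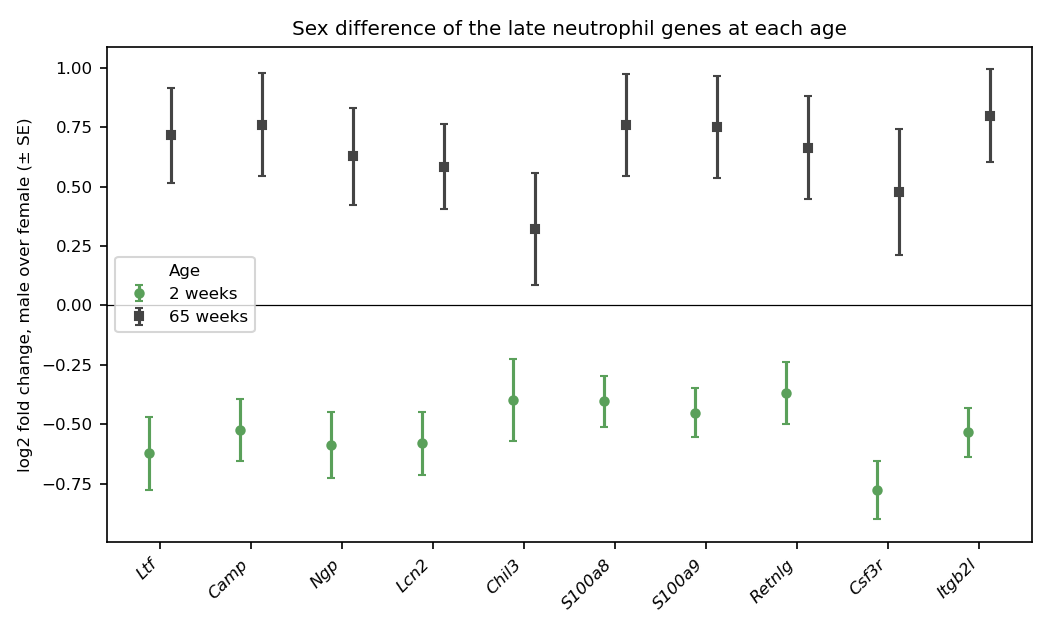
Log2 fold change of males over females (vertical axis) with its SE for each of the 10 genes (horizontal axis), at 2 weeks (circles) and 65 weeks (squares), from separate fits on the 6 libraries of each age. All circles lie below 0, from -0.78 to -0.37, and all squares above 0, from 0.32 to 0.80.

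In fold terms, Ltf in males was 0.650 times the female level at 2 weeks and 1.64 times at 65 weeks, S100a8 0.756 and 1.69 times, Csf3r 0.584 and 1.39 times and Itgb2l 0.691 and 1.74 times. The change of the sex difference from 2 to 65 weeks was between 0.69 (Chil3, SE 0.316) and 1.31 (Ltf, SE 0.266) on the log2 scale. Accordingly the rise with age was smaller within females, at log2 1.19 (S100a9) to 2.20 (Ltf), than within males, at 2.25 (Retnlg) to 3.51 (Ltf), values that contain the sex differences used to pick the genes. For that reason nothing is read from the 10 genes called in each sex alone, where 30.2% of all genes were called higher in females and 27.0% in males. Single libraries of either sex moved some of these differences. At 2 weeks that of Retnlg was -0.20 without female replicate 1 and that of Chil3 -0.26 without female replicate 3. At 65 weeks Chil3 was at 0.07 without male replicate 2 and at 0.55 without male replicate 3, the library with Xist counts, and Csf3r at 0.29 without female replicate 1, 0.32 without male replicate 1 and 0.78 without female replicate 3.

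Among marker lists, the primary granule genes summed to 844 to 1239 CPM in aged females and 1275 to 2340 CPM in aged males, and to 714 to 883 and 567 to 736 CPM in young females and males. The 18 other genes of specific and gelatinase granules summed to 8834 to 12170 CPM in aged females and 11140 to 13300 CPM in aged males. The 28 other maturation genes summed to 2492 to 3625 and 3381 to 3985 CPM. In both of these lists the aged sexes overlapped. The aged sex difference ran both ways among their genes, at log2 -0.485 for Clec4e and 0.659 for Cd177. Endothelial markers summed to 4333 to 7394 CPM in young females, 6297 to 7837 CPM in young males, 463 to 536 CPM in aged females and 391 to 474 CPM in aged males. Monocyte and macrophage markers summed to 3681 to 4244 CPM in young females and 4096 to 6846 CPM in young males, and to 5193 to 6472 and 4239 to 6237 CPM in aged females and males. In the endothelial and the monocyte and macrophage lists the ranges of the sexes overlapped at each age. In young females and males the other specific and gelatinase granule genes overlapped too, at 5191 to 6184 and 4841 to 5797 CPM. The other maturation genes did not, at 1519 to 1743 and 1311 to 1414 CPM. The part of these lists in the sex differences was not tested.

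The genes whose profile over the 12 libraries was most like the mean profile of the 10, among 9916 genes compared, were Wfdc21, Gca, Ankrd22, Adam8 and Trem3. Likeness was measured as the root mean square difference of centred log2 CPM, which was 0.0707 for Wfdc21 and 0.156 for Trem3, against 0.152 to 0.359 for the 10 genes themselves. Wfdc21 was at 25.5 ± 2.63 CPM in young females, 19.4 ± 0.10 CPM in young males, 70.5 ± 11.6 CPM in aged females and 117 ± 24.3 CPM in aged males (SD, n = 3 each). Gca, which encodes the calcium-binding protein grancalcin, was at 8.41 ± 1.35, 5.88 ± 0.0670, 23.9 ± 4.04 and 35.8 ± 6.99 CPM in the same order. All 5 had the group order of the 10 genes, young males lowest and aged males highest. They were picked for their likeness to that profile, so the shared order follows from the choice and supports nothing.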

How the data were processed

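The 12 libraries were read from both ends at 100 nt. The authors deposited counts per gene, not normalised. The methods of the study name STAR 2.7.10a, GRCm39 and featureCounts 2.0.1, whereas the submitters' processing notes name TopHat2, HTSeq and mm9, and which of them made the table was not tested. A total RNA kit was used, although the label names polyadenylated RNA, and the use of strand and of multi-mapping reads is not given in the sources used here. Names and coordinates came from GENCODE M39 (GRCm39) by Ensembl ID, with 31052 of 37620 IDs matched, and promoters from RefSeq (GRCm38.p6).

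Levels were given as CPM of the library total. Ages were compared in edgeR 4.0.16 under R 4.3.3 after filterByExpr (minimum count 10) and TMM scaling, by a quasi-likelihood test on all 12 libraries with the mean of both sexes, and Benjamini-Hochberg adjustment at 0.05. Sex differences came from fits on the 6 libraries of each age, and their change between the ages from the fit on all 12. No test was run on either. The labels name no batch. The 10 genes, the other gene lists, motifs and ratios were chosen with earlier results of these data known. From each other neutrophil list the text names up to 4 called genes, the 2 that rose most and the 2 that fell most at an average log2 CPM of at least 3, and the factors Cebpa, Cebpb, Cebpd, Cebpe, Gfi1 and Spi1 and the ligand Csf3 always, and the marker lists of other cells are given by counts and sums. Mpo, Epx, Emcn and the relatives and neighbours of the 10 genes were named after their values were seen. Azu2 and Ahsp had no match. The fit was also run on simulated data in which far fewer genes changed than were called here. It recovered 42 of 47 genes changed 3-fold, 39 of 50 changed 2-fold, 19 of 48 changed 1.5-fold and 5 of 49 changed 1.25-fold. Of the genes called, 3.67% were unchanged. With so few changed genes it could not test the TMM scaling where most genes differ. The alternatives were DESeq2 1.42.0, other scalings and filters, thinning, each sex alone, a replicate block and leaving out libraries.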

Additional observations from a re-analysis of the deposited data

Results flagged for a closer look

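For 8 of the 10 genes every male library lay below every female library at 2 weeks and above every female library at 65 weeks, so the sexes differed in opposite directions at the ages. The change of the log2 difference of males over females, 65 minus 2 weeks, was 1.31 for Ltf, 1.26 for Camp, 1.19 for Ngp, 1.14 for Lcn2, 1.14 for S100a8, 1.18 for S100a9, 1.01 for Retnlg and 1.31 for Itgb2l. The genes were picked for this pattern, and the difference was not tested. Chil3 (0.69) and Csf3r (1.23) changed in the same direction, but their male and female libraries overlapped at 1 age or both.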

How the results depend on the processing

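All 10 genes were called higher at 65 weeks in all 22 alternatives tried, although 2 of these are fits within a single sex, from which nothing is read. The count of all genes called was 10991 and ran from 8298 (males only) to 11839 (DESeq2), and from 10436 to 11454 in the 13 fits that left out libraries. The age difference of each gene was smallest in females alone and largest in males alone, 2 fits that contain the sex differences used to pick the genes. Leaving out female 2-week replicate 3 and male 65-week replicate 3 together, an alternative chosen after seeing the data, gave 10 genes called and log2 differences from 1.70 (Retnlg) to 2.98 (Ltf). With the replicate number as a block 10 of the 10 genes and 10544 of all genes were called, and the block changed no call on them. The numbers were not shown to pair the libraries: of 18 pairs of groups and numbers 1 had a correlation of deviations over 0.1 (range -0.32 to 0.13), and in 4 of 36 comparisons a library was most like the one of its own number. The 10 genes kept the direction of both sex differences in all 11 alternatives. They were picked partly on these directions and the alternatives refit the same libraries, so nothing is read from this. Leaving out 1 library moved the sex difference by over 1.5 times for Retnlg and Chil3 at 2 weeks and for Chil3 and Csf3r at 65 weeks.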
